A study of Mus musculus with 2 samples.

Results

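Cohesin is a ring of the coiled-coil ATPases Smc1a and Smc3, closed by the kleisin Rad21 and bound by a Stag subunit. Nipbl loads it and drives its movement along DNA, by which loops are extruded, Wapl releases it, and Pds5a and Pds5b bind the ring and regulate its residence. Ctcf is a zinc finger protein that binds DNA in a direction-dependent way and stops extrusion, so that boundaries between domains form where it is bound. The 10 genes that encode these proteins were chosen by name, and all 10 were found in GENCODE M21 among 21755 protein-coding genes of the autosomes and chromosome X. The results concern where their own loci lay among the domain boundaries of olfactory neuronal precursors.

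The cells were primary immediate neuronal precursors, which are about to become olfactory sensory neurons. FVB/NTac pups of mixed sex and without treatment gave the olfactory epithelium from which the cells were sorted on their fluorescence. The labels name Ngn1-GFP mice for the sort and describe its plots as showing immature olfactory sensory neurons, while they list no modification for the cells. The cells are those of 1 gate of that sort, and whether animals were pooled is not stated. Contacts were measured by in situ Hi-C, in which neighbouring DNA ends are joined inside nuclei crosslinked with 1% formaldehyde and cut with DpnII. The 2 biological replicates, of 2200000 and 2100000 cells, belong to the same group, and no conditions could be compared.

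The deposited list holds 7841 boundaries of 5 kb, called after the contacts of both replicates had been combined. No value below has a replicate error, the depth is unknown, and no test was made. Where computed, the same value over all protein-coding genes, all boundaries or all promoter windows stands beside that of the 10 genes. The score of a boundary is the authors' own value, and their strong class is made of the higher scores. Scores ran from 0.2 to 3.78 with a median of 0.533, and 4137 boundaries with scores from 0.5 were classed as strong. The list holds no expression, so the sorted cell type could not be checked against marker genes. A domain here is the span between the nearest boundaries to the left and right of a gene start, and its length is the distance between these boundaries.

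The 10 genes lay on 7 chromosomes and in 10 different domains. Of them, 4 started within 10 kb of a boundary interval, against 16.4% of protein-coding genes, and these were Smc3, Nipbl, Pds5a and Pds5b. All 4 started within 2 kb of one, against 8.35% of genes, a distance chosen after the values were seen. The 4 boundaries were strong, and lay upstream of the gene or at its start. The share of all genes with the near boundary on that side was not computed. A strong boundary lay within 10 kb of the start of 10.6% of all protein-coding genes. The gene just outside the 10 kb limit was Smc1a at 18.6 kb, and the one just inside it was Pds5a at 1.73 kb.

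**Figure D1:**
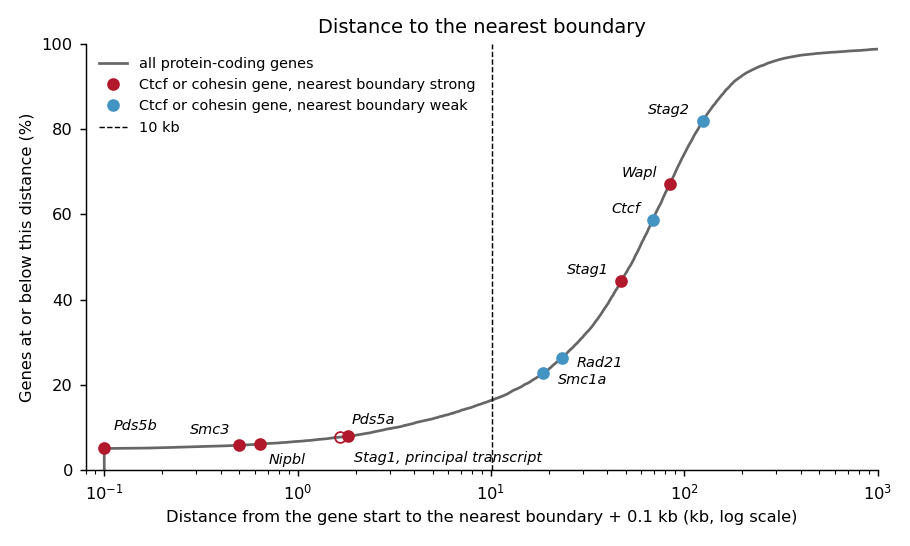
Distance from the gene start to the nearest boundary interval (horizontal axis, log scale, with 0.1 kb added so that a distance of 0 can be drawn) against the percentage of protein-coding genes at or below it; the line shows all genes and the points the Ctcf and cohesin genes, coloured by the class of their nearest boundary. Smc3, Nipbl, Pds5a and Pds5b sit below 2 kb at strong boundaries, and the open circle shows Stag1 measured from its principal transcript, at 1.55 kb.

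With all boundaries of the list counted, domains of these genes were mostly shorter than those of other genes and held fewer gene starts. The median length was 182.5 kb (10 genes), against 290 kb over the 21526 protein-coding genes with a boundary on both sides. Domains shorter than that median held 8 of the 10, against 50% of genes, and 6 of the 10 were in domains of at most 205 kb, the lower quartile, against 26.4%. The median number of other protein-coding gene starts in the domain was 1.5, against 5. Rad21 and Nipbl had no other start in theirs, as did 9.42% of genes, and 5 of the 10 had at most 1, as did 20.5%. The 10 genes were long, with a median gene length of 83.3 kb against 17.6 kb over all. These comparisons of domains were not matched for gene length. The order of the medians of length depended on the boundaries counted: with strong ones alone they were 437.5 kb for the 10 genes and 495 kb for all, and with those at or above the median score 610 and 535 kb. In both cases the median number of other starts was 4 for the 10 genes and 8 for all. The boundaries around them were not stronger than those around other genes. The weaker of the flanking boundaries had a median score of 0.328, against 0.417 over all genes, and the stronger one 0.767, against 0.927. Both flanks were strong for 3 of the 10 genes (38.2% of all genes), exactly 1 for 4 (48.6%) and neither for 3 (13.3%). Those 3 were Rad21 and, on chromosome X, Smc1a and Stag2. The median weaker flank was 0.321 over protein-coding genes of chromosome X and 0.425 over autosomal ones, and the stronger 0.779 and 0.935. The medians of the 10 genes were not split by chromosome.

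**Figure D2:**
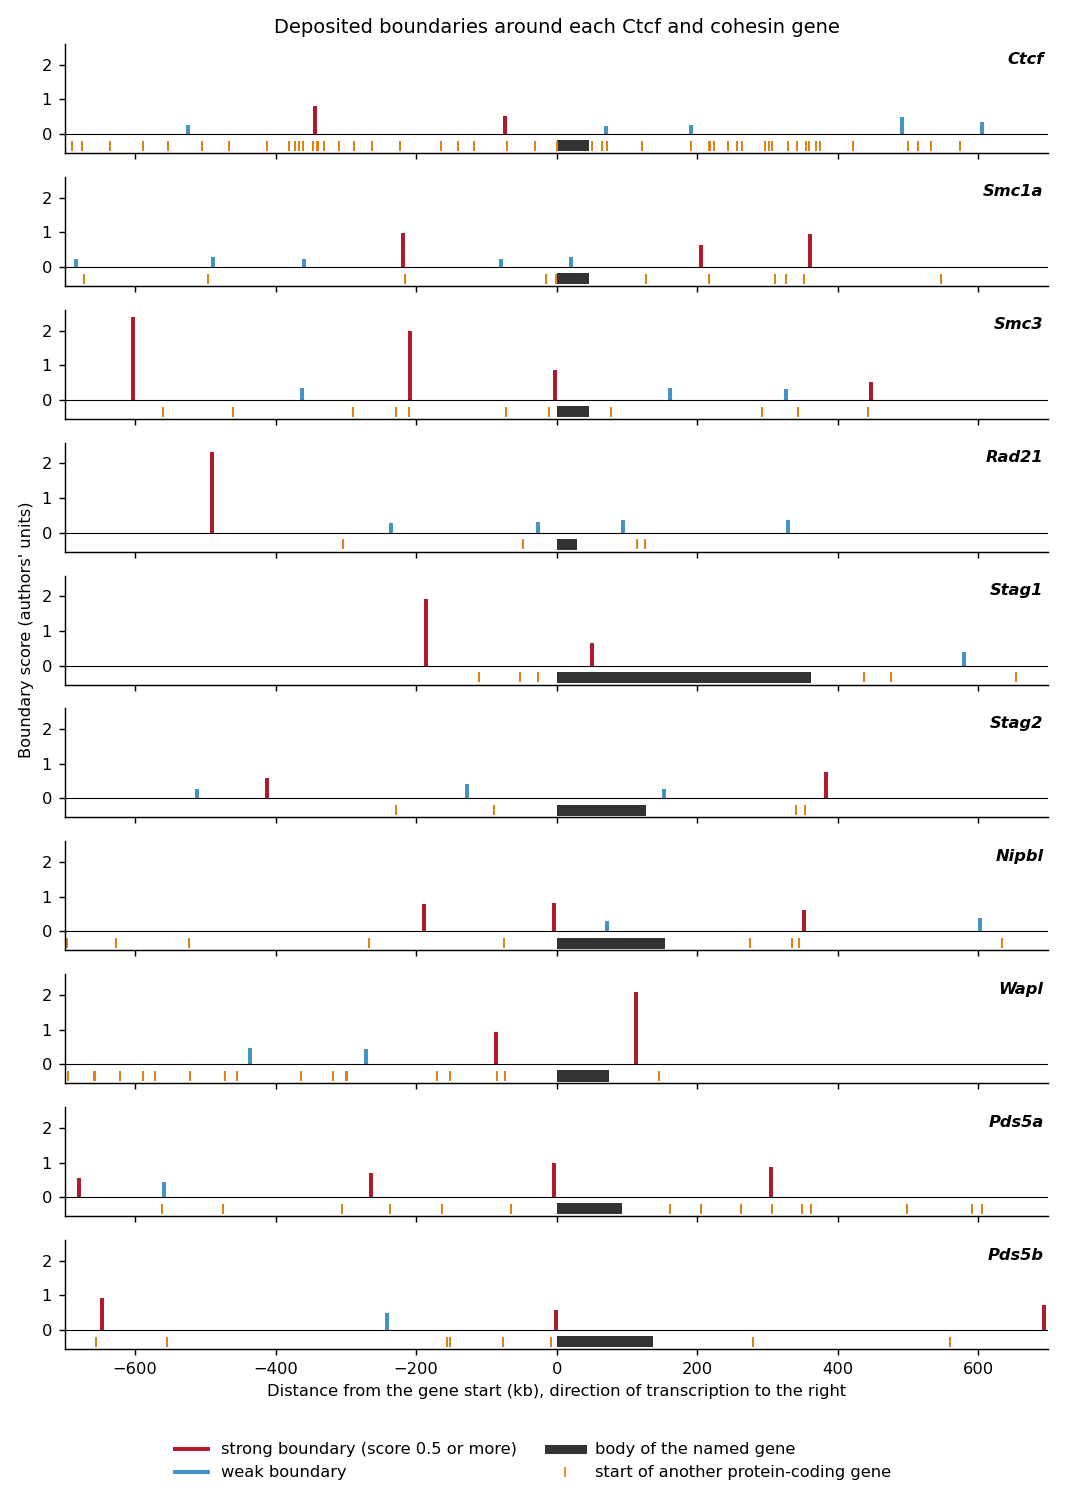
Boundaries of the deposited list near each gene start (horizontal axis, distance in kb), with the direction of transcription to the right; bar height is the boundary score, dark bars below the line are the named gene and ticks are starts of other protein-coding genes. Smc3, Nipbl, Pds5a and Pds5b begin at a strong boundary, Smc1a, Stag1 and Nipbl are crossed by a boundary farther along the gene, and Rad21 lies between weak boundaries.

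Ctcf lay in the middle of a short domain with a weak boundary downstream. The gene (chromosome 8, 105636568 to 105682922, plus strand) started 71.6 kb from its upstream boundary and 68.4 kb from its downstream one, in a domain of 145 kb. Only 6.94% of protein-coding genes had a shorter domain. The upstream boundary (105560001 to 105565000), in an intron of the proton pump gene Atp6v0d1, scored 0.511, just above the limit of the strong class. The downstream one (105705001 to 105710000) scored 0.225, with 7.28% of the list below it, and overlapped exons of Enkd1 and 4933405L10Rik. Ctcf shared the domain with 6 other protein-coding gene starts, near the median of 5 over all genes, as many as Pds5b and more than the other 8. The gene model of Agrp, which encodes an appetite neuropeptide, had its 5′ end 0.825 kb inside the Ctcf gene on the other strand. Starts of single Agrp transcripts were not examined. Ripor1, Carmil2, Acd, Pard6a and Atp6v0d1 started 31.3 to 70.5 kb away. With strong boundaries alone the domain of Ctcf was 855 kb long.

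Of the ring subunits, Smc3 started at a strong boundary, while Smc1a and Rad21 lay between weak ones. Smc3 (chromosome 19, 53600398 to 53645833, plus strand) started 398 bp downstream of an intergenic boundary (53595001 to 53600000) with a score of 0.849, above 72.1% of the list. The whole gene lay within the domain of 165 kb that begins there and ends in an intron of Rbm20, a splicing factor gene, at a boundary with a score of 0.350. Rbm20 was the only other protein-coding gene that started in the domain, 76.9 kb away. On the other side of the boundary, 11.3 kb from the Smc3 start, Nutf2-ps1 started on the opposite strand.

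RefSeq's promoter table holds a window of 300 bases for 7 of the 10 genes, from 250 bases before to 50 after the start (GRCm38.p6), and Nipbl, Rad21 and Stag2 are not in it. The stretch before the start of Smc3 (chr19:53600146-53600395, plus strand) is shown because it begins inside the short gap between boundary interval and gene; capitals mark GC boxes (GGGCGG, either strand).

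Smc3: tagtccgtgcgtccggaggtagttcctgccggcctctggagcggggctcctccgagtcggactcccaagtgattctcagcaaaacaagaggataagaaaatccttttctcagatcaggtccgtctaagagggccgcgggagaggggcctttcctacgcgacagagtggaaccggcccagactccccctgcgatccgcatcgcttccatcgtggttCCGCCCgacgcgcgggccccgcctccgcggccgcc

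This stretch of 250 bases had 26 CpG and a GC content of 64.4%. All 7 windows of these genes held a GC box, as did 35.7% of 32851 windows in the table. Their GC content ran from 58.3% for Smc1a to 80.3% for Pds5a, against a median of 52.7%. The windows of the whole table were neither limited to protein-coding genes nor matched for GC content. The promoter motifs were chosen after the values were seen. The YY1 core (AANATGGCG, either strand) was in 4 of the 7 windows, those of Ctcf, Smc3, Stag1 and Pds5b, and in 2.38% of all. The core of NRF1, a factor of many housekeeping promoters (GCGC, any 2 bases, GCGC, which reads alike on both strands), was also in 4, those of Stag1, Wapl, Pds5a and Pds5b, and in 6.23% of all. CCAAT (either strand) was in 4 (37.4% of all) and the ETS core CCGGAAG (either strand) in 0 (8.86%). The core motif of CTCF was in 0 of the 7, and in 0.561% of the 32619 windows on the chromosomes searched. NRF1 matches could overlap one another, and the YY1 match of Stag1 overlapped a GC box.

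Smc1a (chromosome X, 152016428 to 152062694, plus strand) had the domain with the lowest scores, 0.222 upstream (151935001 to 151940000, in exons of the ubiquitin ligase gene Huwe1) and 0.271 downstream. Both scores were low in the list, with 6.39% and 18.3% of boundaries below them. The downstream boundary (152035001 to 152040000) was inside Smc1a itself, 18.6 kb from the start, and overlapped exons 12 to 15 of the 25 of its principal transcript. The domain of the start was 100 kb long and held 40.1% of the gene. The divergent gene Ribc1 started 133 bp away and Hsd17b10, a mitochondrial dehydrogenase gene, 14.6 kb away. With strong boundaries alone the domain was 425 kb long and its nearest boundary 204 kb away.

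Rad21 (chromosome 15, 51962240 to 51991747, minus strand) was the shortest of the 10 genes, at 29.5 kb, and the only protein-coding gene that started in its domain of 120 kb. Its start was 23.3 kb from an intergenic boundary upstream (52015001 to 52020000, score 0.306) and 91.7 kb from one downstream (51895001 to 51900000, score 0.374). Both were weak, and the nearest strong boundary was 488 kb away, with a score of 2.33. Strong boundaries alone placed Rad21 in a domain of 3690 kb, the longest of the 10 under that count, while the median over all protein-coding genes was then 495 kb.

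The paralogues Stag1 and Stag2, either of which can bind the ring, had unlike surroundings. Stag1 (chromosome 9, 100597798 to 100959375, plus strand) was the longest of the 10 genes, at 362 kb, and lay behind one of the strongest boundaries of the list. That boundary (100410001 to 100415000, intergenic), 183 kb upstream of the start, scored 1.92, and 98.0% of the list lay below it. The downstream one (100645001 to 100650000) scored 0.655 and lay in an intron of Stag1. The domain of 235 kb held the starts of Slc35g2, the adaptor gene Nck1 and the interleukin receptor gene Il20rb, 26.7 to 111 kb away and all on the other strand. It held 13.1% of the Stag1 gene.

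The position of the Stag1 start depends on the transcript. Of 17 GENCODE transcripts, 1 began at the start of the gene model, 47.2 kb from the intronic boundary. The principal transcript of 34 exons and all 3 curated RefSeq transcripts began at 100643448, 1.55 kb upstream of that boundary interval. Of the 17 GENCODE transcripts, 10 began within 10 kb of a boundary. Other genes depended on the transcript as well. Within 10 kb began 1 of 3 transcripts of Smc3, 4 of 14 of Pds5a, 3 of 8 of Pds5b and 2 of 6 of Smc1a. The single transcript of Nipbl did so too, and none of Ctcf, Rad21, Stag2 and Wapl. The share of transcripts over all genes was not computed. Measured from principal transcripts, 5 of the 10 genes started near a boundary (16.3% of all protein-coding genes). The promoter stretch at this start (chr9:100643198-100643447, plus strand) and the exact CTCF core matches that follow it are printed because they lie between 1 and 2 kb from the boundary. In the promoter, capitals mark GC boxes and the cores of NRF1 and YY1 and CCAAT, as spelled out for Smc3. In the other sequences, of 30 bases each, capitals mark the CTCF core.

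Stag1 promoter: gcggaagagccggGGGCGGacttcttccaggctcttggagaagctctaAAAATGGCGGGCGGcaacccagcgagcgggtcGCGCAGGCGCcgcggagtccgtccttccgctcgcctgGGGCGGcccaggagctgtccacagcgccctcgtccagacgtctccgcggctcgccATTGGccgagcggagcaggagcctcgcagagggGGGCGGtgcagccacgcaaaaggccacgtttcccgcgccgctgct
Stag1 first CTCF core: gcagcgcggCCAGCAGAGGGCggtcgggac
Stag1 second CTCF core: tggaaaatgCCACCAGATGGCgggttagga

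The cores lay 125 and 183 bp downstream of this start, in an exon of the principal transcript, and 1.42 and 1.36 kb from the boundary interval. Both are on the plus strand, so they read in the direction of transcription and away from the domain upstream. The interval itself overlapped no exon of the principal transcript.

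Stag2 (chromosome X, 42149317 to 42277185, plus strand) was the farthest of the 10 from any boundary, at 124 kb. It lay whole in a domain of 280 kb with intergenic weak flanks, with scores of 0.412 upstream (42020001 to 42025000) and 0.287 downstream (42300001 to 42305000). Xiap, which encodes an inhibitor of apoptosis, started 89.6 kb upstream and was the only other protein-coding gene that started there. The stronger flank of Stag1 scored 1.92 and that of Stag2 0.412. Stag2 and Smc1a are on chromosome X, where the median score of the 431 boundaries was 0.363 and 32.9% were strong, against 0.533 and 52.8% in the whole list. Over the 928 protein-coding genes of chromosome X the weaker flank had a median score of 0.321 and the stronger 0.779. The weaker flanks of Smc1a and Stag2, at 0.222 and 0.287, were below the first of these medians, and their stronger flanks, at 0.271 and 0.412, below the second. The part of the chromosome in their scores was not tested.

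**Figure D3:**
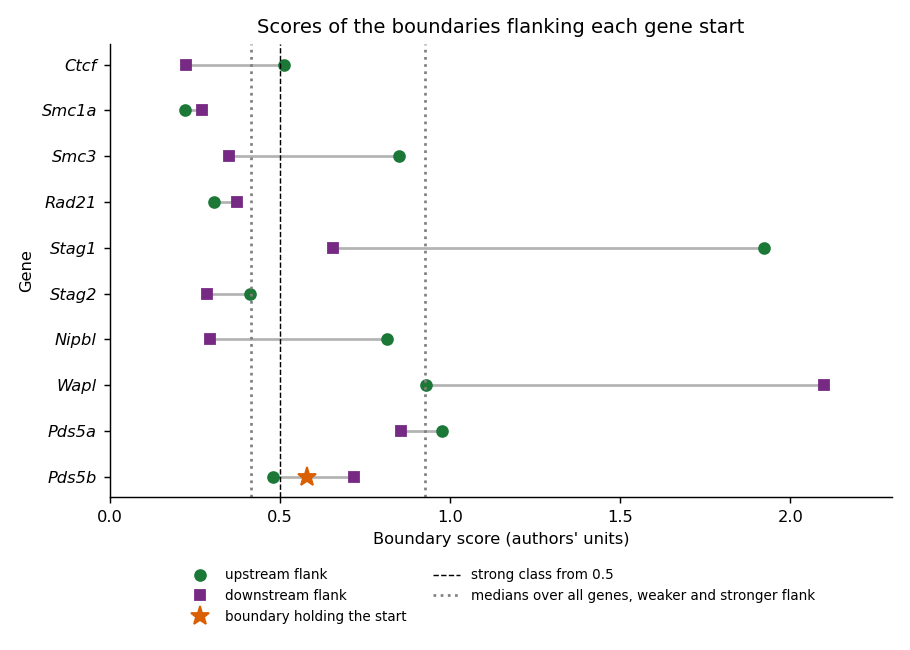
Scores of the upstream (circles) and downstream (squares) boundaries that flank each gene start, with a star for the boundary that holds the start of Pds5b; the dashed line is the limit of the strong class and the dotted lines are the medians over all protein-coding genes of the weaker and stronger flank, 0.417 and 0.927. Stag1 and Wapl have the strongest single flanks, at 1.92 and 2.10, and both flanks of Smc1a, Rad21 and Stag2 are weak.

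Nipbl, the loader, had the shortest domain and was crossed by a weak boundary. The gene (chromosome 15, 8290617 to 8444463, minus strand) started 538 bp from an intergenic boundary upstream (8445001 to 8450000) with a score of 0.815. The next boundary (8370001 to 8375000, score 0.296) was inside the gene, 69.5 kb from the start, and overlapped exons 2 and 3 of the 47 of the principal transcript. The domain between them was 75 kb long, and 0.125% of protein-coding genes had a shorter one. It held the first exon and 45.2% of the gene, and no other gene of any type started in it. The nearest other protein-coding start, that of Gm2310, was 75.5 kb away on the far side of the upstream boundary. The 2 curated RefSeq transcripts began at the same base as the GENCODE gene. Of 5 predicted ones 2 began more than 10 kb beyond the interval, the outermost at 15.3 kb, so that on this extent Nipbl was not near a boundary. By the outermost RefSeq start 3 of the 10 genes were near one, against 16.9% of 20349 protein-coding genes matched by symbol. By the outermost start of curated RefSeq transcripts alone 5 of the 10 were near one, against 16.8% of 20225 such genes. With strong boundaries alone the domain of Nipbl was 355 kb long.

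Wapl, which takes cohesin off DNA, had strong flanks on both sides and lay near neither. The gene (chromosome 14, 34673928 to 34747983, plus strand) started 83.9 kb from the upstream boundary (34585001 to 34590000, score 0.929), which overlapped exons of the muscle gene Ldb3. Its downstream boundary (34785001 to 34790000, intergenic) scored 2.10, the highest flank of the 10 genes, with 99.0% of the list below it and place 82 by score. The domain of 200 kb held the whole gene and 1 other protein-coding start, that of the melanopsin gene Opn4, 73.8 kb away on the other strand. It did not change when strong boundaries alone were counted.

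Pds5a and Pds5b, both on chromosome 5, each started at a strong boundary, but in domains of unlike length. Pds5a (65605721 to 65698273, minus strand) started 1.73 kb from an intergenic boundary upstream (65700001 to 65705000, score 0.976), and its downstream boundary (65390001 to 65395000), in exons of Rpl9 and Lias, scored 0.856. Of the 10 genes, the ratio of the stronger to the weaker flank was lowest here, at 1.14, and highest for Stag1, at 2.93. The domain was 310 kb long and held the whole gene and 4 other protein-coding starts. These were Ube2k and Smim14, which started 161 kb away, Gm43552, and Ugdh, which encodes a sugar nucleotide dehydrogenase.

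Pds5b (150673739 to 150810690, plus strand) was the only one of the 10 that started inside a boundary interval, as did 5.07% of protein-coding genes. Its start was base 3739 of the interval (150670001 to 150675000, score 0.580), which overlapped exon 1 of 35 with untranslated sequence. The next boundaries on either side (150430001 to 150435000, in an exon of Fry, score 0.480, and 151365001 to 151370000, in an intron of Gm42906, score 0.720) were 935 kb apart. That span contains the boundary at the start, which divides it into 240 kb upstream and 695 kb downstream. The rest of the gene lay in the downstream part, with the starts of the Klotho gene Kl and of Stard13, 279 and 560 kb away. N4bp2l2, N4bp2l1, the DNA repair gene Brca2 and Zar1l started upstream, N4bp2l2 at 7.56 kb and on the other strand. The stretches before both starts are shown because they are the promoters nearest to these boundaries, Pds5a (chr5:65698274-65698486, minus strand) and Pds5b (chr5:150673577-150673738, plus strand, inside the interval). Capitals mark GC boxes and NRF1 cores.

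Pds5a: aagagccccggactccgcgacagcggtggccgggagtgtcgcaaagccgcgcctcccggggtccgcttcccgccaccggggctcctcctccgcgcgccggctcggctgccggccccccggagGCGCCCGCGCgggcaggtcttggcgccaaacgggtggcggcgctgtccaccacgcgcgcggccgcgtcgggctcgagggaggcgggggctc
Pds5b: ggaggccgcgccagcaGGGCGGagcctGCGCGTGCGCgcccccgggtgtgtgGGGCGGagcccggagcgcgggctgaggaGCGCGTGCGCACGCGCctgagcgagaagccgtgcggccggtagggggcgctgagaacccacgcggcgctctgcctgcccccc

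The printed stretch of Pds5a holds 1 NRF1 core and that of Pds5b 3, of which a pair overlaps. Both have a GC content of 80%, with 36 CpG in 213 bases of Pds5a and 25 in 162 bases of Pds5b.

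**Figure D4:**
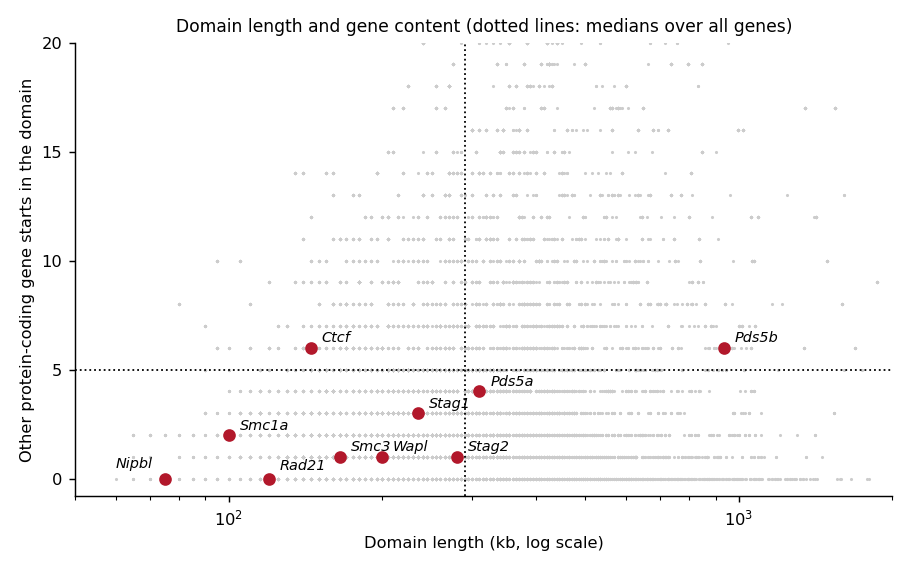
Domain length (horizontal axis, kb, log scale) against the number of other protein-coding genes that start in the domain; grey points are protein-coding genes with a boundary on both sides (1545 of 21526 fall outside the axes), red points the Ctcf and cohesin genes, and dotted lines the medians over all genes, 290 kb and 5 starts. Of the 10 genes, 8 lie left of the vertical line, and Ctcf and Pds5b above the horizontal one. The point of Pds5b covers a span that contains the boundary at its start, which divides it into 240 kb with 4 other starts and 695 kb with 2.

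Along the direction of transcription the stronger flank was upstream for 6 of the 10 genes, against 51% of all protein-coding genes. A boundary overlapped 4 of the 10 genes, Smc1a, Stag1, Nipbl and Pds5b, against 17.7% of all protein-coding genes. Long genes meet boundaries more often: among the 7312 genes within the range of lengths of the 10, from 29.5 to 362 kb, the share was 28.7%. With strong boundaries alone, 2 of the 10 were overlapped, Stag1 and Pds5b, against 11.2% of all protein-coding genes and 17.5% of those in this range of lengths.

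The list holds no measure of CTCF binding. Exact matches to the CTCF core motif (12 bases) were sought on both strands within 10 kb of each of the 21 boundaries described above. Of these boundaries 6 held one, against 26.0% of all boundaries and 10.7% of windows of the same length, 25 kb, tiled along the genome. Matches that face each other across the domain, plus strand at its left and minus strand at its right, were at both flanks for 0 of the 10 genes, against 2.83% of genes. With up to 1 mismatch they were there for 7 of the 10, against 63.2%. A match at the upstream flank that reads toward the gene start was present for Smc1a and Stag2, against 15.7% of genes, and for Pds5a such a match lay at the downstream flank. These matches are printed with those of Ctcf and Rad21, which read away from the start, each on its own strand with the core in capitals. They are at chrX:151947179-151947208 (plus) and chrX:151937532-151937561 (minus) for Smc1a, chrX:42033258-42033287 (plus) for Stag2, chr5:65401838-65401867 (plus) for Pds5a, chr8:105714342-105714371 (plus) for Ctcf and chr15:51899302-51899331 (minus) for Rad21.

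Smc1a upstream, toward the start: gatgctttaCCAGTAGAGGGCagtggaaag
Smc1a upstream, away from the start: ctcagtctaCCACCAGGTGGCtagctggtg
Stag2 upstream, toward the start: catatctgaCCACCAGGTGGCagcctccca
Pds5a downstream, toward the start: tattacttgCCAGTAGAGGGCaggccaacc
Ctcf downstream, away from the start: tgccttcttCCAGTAGGGGGCgctgcagga
Rad21 downstream, away from the start: agacatgggCCAGCAGATGGCgccaaatgc

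The Smc1a match that reads away from the start and that of Rad21 were inside the boundary interval, and the others 4.35 to 8.27 kb from it. The strong boundaries at the starts of Smc3, Nipbl, Pds5a and Pds5b held no exact match within 10 kb, and 33.7% of all strong boundaries held one. With up to 1 mismatch all 4 held a match, as did 94.2% of strong boundaries.

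Of 31 other genes of related complexes, 6 started within 10 kb of a boundary (19.4%, against 16.4% of all protein-coding genes). Their median domain was 275 kb, against 182.5 kb for the 10 genes, and held 4 other protein-coding starts. Among 8 genes of cohesin loading, acetylation, protection and release, Mau2, the partner of Nipbl in loading (score 0.348), and the Smc3 deacetylase gene Hdac8 (0.523) started inside boundary intervals. So did the zinc finger gene Yy1 (0.302), of 5 such factors, and the condensin gene Ncapg (0.813), of 8. In the Smc5/6 complex of 6 genes, Smc5 started 6.10 kb (score 0.671) and Nsmce2 5.75 kb (1.35) from a boundary. None of the 4 meiotic subunits Smc1b, Rec8, Rad21l and Stag3 did so, with distances of up to 75.2 kb.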

How the data were processed

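Contact lists of both replicates were combined by the authors into a matrix on GRCm38 and boundaries called on it, per the series' design text. No source used here names the caller or its thresholds. In the deposited list each boundary has a class and a score in the authors' units. Combining replicates adds contacts but leaves no spread, and can keep boundaries present in 1 replicate alone.

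Genes came from GENCODE M21, promoters and further transcripts from RefSeq, and sequence from GRCm38.p6, the build of the list. Starts were taken at the 5′ end of each gene model. Principal transcripts were those with the lowest APPRIS level, the longest of several. Of 21755 protein-coding genes, 229 lacked a boundary on one side and had no domain. Distances run to the edge of the 5 kb interval. Python 3.11.15, pandas 2.3.3 and pysam 0.24.0 were used, and domain assignment was tested on simulated positions.

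All 10 genes were described, and of genes that share a domain all where there were at most 6. The members and the 31 related genes were chosen with earlier results of these data known, so no test was made. The 2 kb distance, the promoter motifs and the strand of flanks were chosen after the values were seen. Alternatives were strong boundaries, boundaries at or above the median score, merging within 50 kb, windows of 0, 25 and 50 kb, other gene starts and motif settings.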

Additional observations from a re-analysis of the deposited data

How the results depend on the processing

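The count of 4 genes near a boundary became 1 over the bare intervals (5.07% of all protein-coding genes) and 7 within 50 kb (46.3%), and was 6 within 25 kb (27.8%). It was also 4 with strong boundaries alone (10.6% of all protein-coding genes) and with those at or above the median score (10.2%). With strong boundaries alone, and with those at or above the median score, the median domain length was 437.5 and 610 kb, the median score of the weaker flank 0.644 and 0.698, that of the stronger flank 0.961 and 0.977, the median of other starts 4 in both cases (8 over all protein-coding genes), and 2 genes overlapped a boundary in both (11.2% and 10.7% of all protein-coding genes). Fewer boundaries enter these counts, and the median domain over all protein-coding genes was then 495 and 535 kb, so on the latter count the 10 genes were in longer domains than others. Flank scores over all protein-coding genes were not computed for these counts. Counting genes of all types, the median of other starts was 5.5, against 9 over all protein-coding genes. From the outermost RefSeq start, predicted transcripts included (an alternative added after seeing the data), the median domain length was 192.5 kb and the weaker flank 0.415. Over all protein-coding genes the weaker flank had a median of 0.417 from gene model starts, and it was not computed from RefSeq starts. Facing CTCF cores with up to 1 mismatch were at 7 genes, against 63.2% of protein-coding genes with a boundary on both sides. No boundaries lay within 50 kb of each other (smallest distance 60 kb), so merging changed nothing. Replicates could not be left out, and no paired analysis was possible because they were combined before calling. Depth is unknown.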
